A study of Mus musculus with 10 samples.

Results

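The genes described here encode the nuclear subunits of the mitochondrial respiratory chain and of ATP synthase, and they were measured in Ly6G+ cells of the infarcted mouse heart and of blood. They were chosen by name alone: each is annotated as protein-coding in the GRCm39 mouse genome, and its symbol begins with Ndufa, Ndufb, Ndufc, Ndufs, Ndufv, Sdha, Sdhb, Sdhc, Sdhd, Uqcr, Cox4, Cox5, Cox6, Cox7, Cox8 or Atp5, with the Ndufaf assembly factors left out. Of the 28185 genes in the table, 17888 of them protein-coding, 88 met this rule. They comprise 37 genes of complex I, 4 of complex II, 8 of complex III, 17 of complex IV and 18 of complex V. The remaining 4 are Sdhaf1, Sdhaf2, Sdhaf3 and Sdhaf4, assembly factors of complex II that share its prefix. Cox5b-ps carries a pseudogene's name but is annotated as coding and was kept. A further 6 coding genes with these prefixes (Cox7b2, Cox8c, Ndufa4, Ndufa4l2, Ndufb11b and a second Atp5po identifier) and the subunits encoded by mitochondrial DNA were not analysed here.

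Adult male C57Bl/6J mice underwent ligation of the left coronary artery, and some then received syngeneic bone marrow mesenchymal stromal cells (MSC) under the skin. On day 3, cells were taken with anti-Ly6G microbeads from the digested left ventricle and from blood, and their RNA was sequenced in 4 groups, 3 MI hearts without MSC, 3 MI + MSC hearts, 2 Blood samples without MSC and 2 Blood + MSC samples, so that every mouse, including those without MSC, carried an infarct. Mouse neutrophils carry Ly6G on their surface, and other cells can stay in a bead-enriched sample. No sham-operated mice were among these samples, and the batch named in the labels is the group itself, so that batch and group cannot be told apart. The labels do not tie hearts to blood samples by mouse.

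The respiratory chain passes electrons from NADH and succinate to oxygen through complexes I to IV and pumps protons across the inner mitochondrial membrane, and complex V (ATP synthase) uses the return of the protons to make ATP. Neutrophils are known for relying mostly on glycolysis and for having few mitochondria, whereas heart muscle is among the tissues richest in them. Cytochrome c oxidase (complex IV) has subunits with a heart- or muscle-type form and a form found in most cells: Cox6a2 and Cox6a1, Cox7a1 and Cox7a2, and Cox8b and Cox8a.

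The libraries differ in depth and in the cells they hold. Reads on genes, recovered from the steps of the normalized values, ranged from 148594 (MI 13) to 8602711 (Blood + MSC 24). A single read is worth 8.40 normalized counts in MI 13 and 7.07 in Blood 21 but 0.168 to 2.30 in the other 8 libraries, so low values in these 2 libraries rest on a few reads. The 18 heart muscle markers, such as the myosin gene Myh6 and the troponin gene Tnnt2, summed to 3699 to 26882 normalized counts in the 6 heart libraries and to 58.8 to 106 in the 4 blood libraries, where 1 to 15 of the 18 were at 0. The 15 neutrophil markers summed to 2975 to 9333 in the MI hearts, 3778 to 16420 in MI + MSC, 47218 to 56652 for Blood and 18496 to 26873 for Blood + MSC. Blood 21 stands apart from the other blood libraries: its 12 platelet markers summed to 32112 against 665 to 1288, and its 8 erythroid markers to 488 against 2623 to 9578. The counts of members called in heart against blood are therefore also given without both libraries. Isoform shares and some genes are given with single libraries left out. The lists of genes around the chain are given with all libraries only. In such bulk samples, fewer cells of a type and less RNA per cell cannot be told apart.

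The 88 genes together took a small and similar part of the reads in heart and blood. Their share was 0.596%, 0.529% and 0.445% across MI and 0.432%, 0.377% and 0.530% in MI + MSC. In blood it was 0.283% (Blood 21) and 0.501% (Blood 22) without MSC, and 0.501% and 0.587% with MSC. The lowest of the 10 shares was thus in Blood 21, where its exact 95% binomial interval was 0.263% to 0.303%, and the ranges of the heart and blood libraries overlapped. Shares, intervals and limits given here cover counting error only. Of the 88 genes, 76 had at least 1 read in Blood 21 and 80 in MI 13, and 86 to 88 in every other library. A gene was tested when its mean over the 10 libraries reached 10 normalized counts, which 80 of the 88 did. The other 8 are Atp5me, Cox4i2, Cox5b-ps, Cox6b2, Cox7a1, Ndufb2, Sdhaf3 and Sdhaf4.

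Levels between genes were compared as normalized counts per kilobase of the canonical mRNA, averaged over the 10 libraries. On this scale Cox8a (complex IV) was highest at 438, followed by Uqcr10 (complex III) at 350, Atp5f1b, the catalytic beta subunit of ATP synthase, at 333, Cox4i1 (complex IV) at 310 and Cox6a1 at 253. The highest member of complex I was Ndufa6 at 153 and that of complex II was Sdhd, a membrane anchor, at 138. At the other end, Cox6b2 stood at 1.19, Sdhaf3 at 2.08, Ndufb2 at 2.27, Sdhb at 9.08, Uqcr11 at 11.8 and Atp5mk at 12.1, each the lowest of its complex or, for Sdhaf3, of the assembly factors. Sdhaf2 led the assembly factors at 29.1. These levels per kilobase depend on the isoform taken as canonical: the canonical mRNAs of Sdhb and Ndufb2 span 4030 and 4389 bases, and that of Uqcr10 spans 448.

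**Figure D1:**
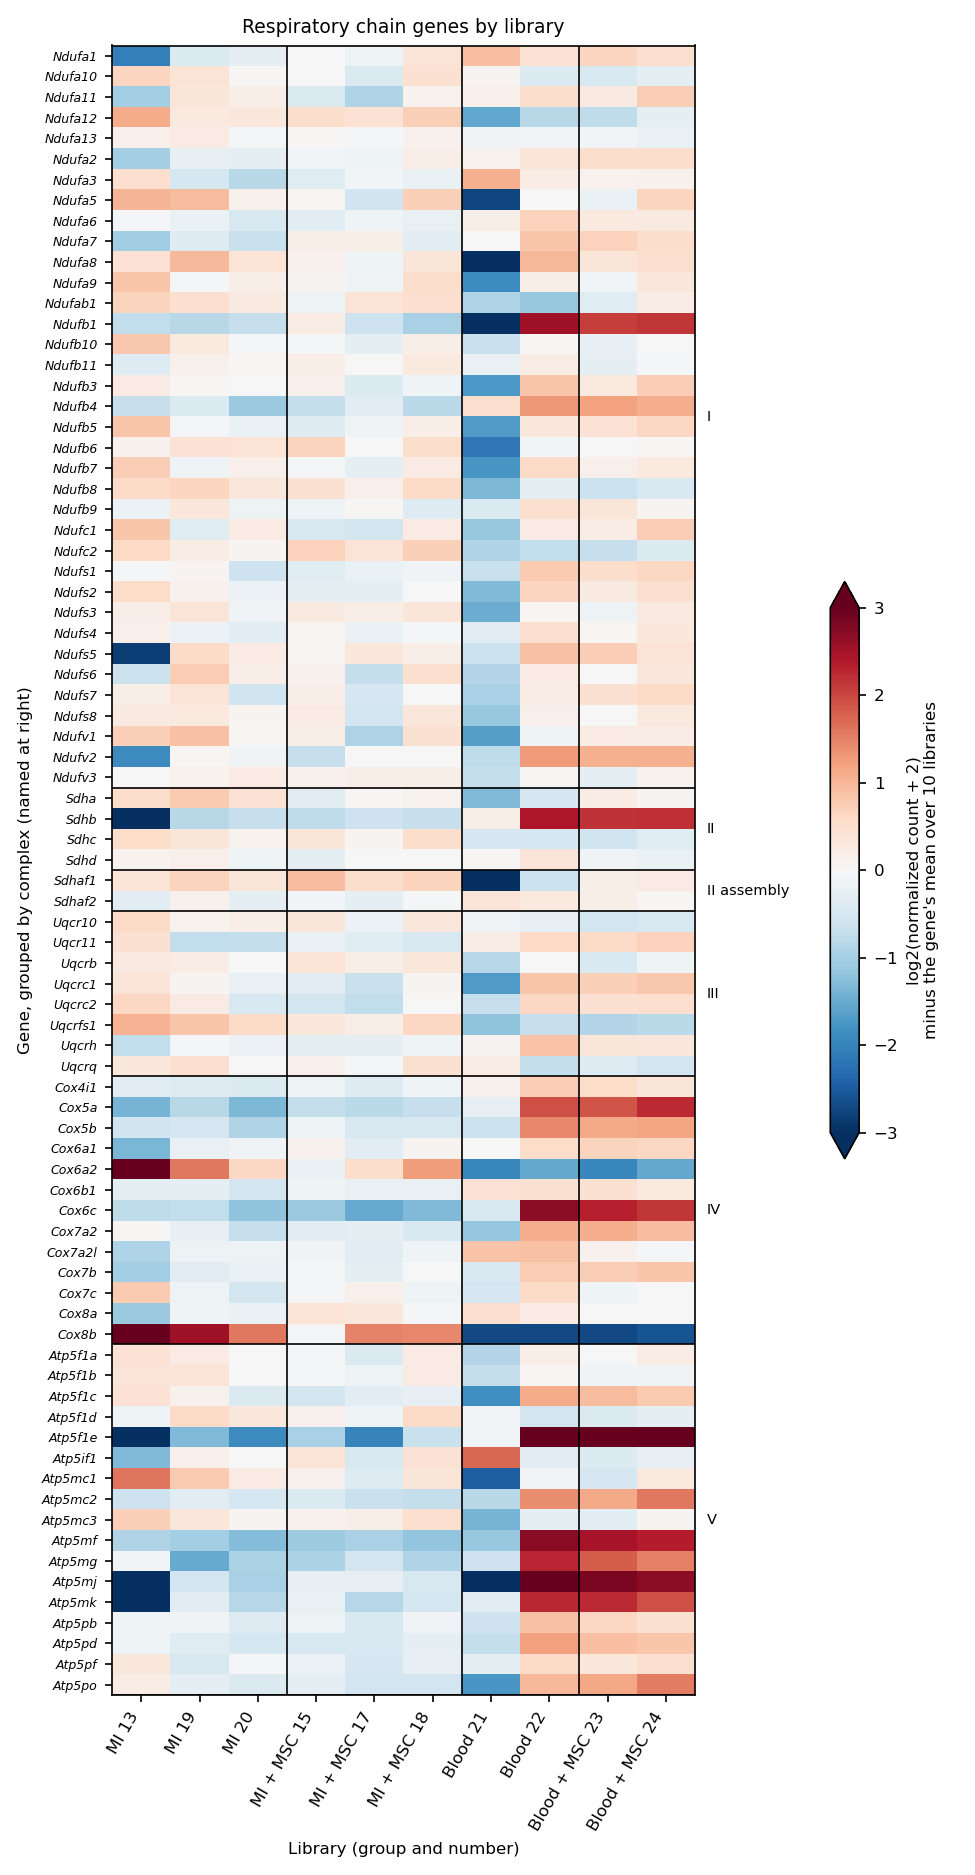
Heat map of the 80 tested genes (rows, grouped by complex as named at the right) in the 10 libraries (columns). Colour gives log2(normalized count + 2) minus the gene's mean over the 10 libraries. Atp5f1e, Atp5mf, Atp5mg, Atp5mj, Atp5mk, Cox5a, Cox6c, Ndufb1 and Sdhb are high in Blood 22 and both Blood + MSC libraries and low in the heart and in Blood 21, and Cox6a2 and Cox8b are high in the heart.

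Heart and blood were compared to ask how Ly6G+ cells of the infarct differ from those in circulation. The tests used limma on log2(normalized count + 2), with Benjamini-Hochberg adjustment over all 11549 genes tested, and a gene is called here when its adjusted p is under 0.05 and its log2 fold change is at least 0.5 in size. In MI against Blood, 14 of the 80 tested genes were called higher and 11 lower, where 21.2% of all genes tested were called higher and 13.5% lower. As shares of the members these counts are near that background. The median log2 fold change of the members was 0.08, beside 0.15 for all genes tested. In MI + MSC against Blood + MSC, 3 were called higher and 8 lower, with 8.23% and 5.85% of all genes tested. Here the median was -0.36 beside 0.09. These calls depended on both Blood + MSC libraries: leaving out either one ended most of them. Far fewer of all genes were called as well, and each such fit left 1 library in that group. Counted without a test, all MI + MSC libraries lay above both Blood + MSC libraries in 16 members and below both in 43, where 33.8% and 29.7% of all genes did so. The comparisons share no library, but the fit took the spread of each gene from all 10 libraries, so their calls are not independent. Of the 25 and 11 genes called, 8 were called in both and in the same direction. This is 32.0% of the first list and 72.7% of the second. The share of all genes called in both was not counted, so this overlap has no background beside it. Cox8b, Ndufc2 and Uqcrfs1 were higher in the heart, and Atp5f1e, Cox5a, Cox6c, Ndufb4 and Sdhb lower.

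Without the shallow libraries MI 13 and Blood 21, a check added after seeing the data, the balance moved towards lower values in the heart. In MI against Blood, where Blood 22 then stands alone and is assumed to vary like the other groups, 10 members were called higher and 30 lower, with 19.9% and 18.3% of all genes tested. In MI + MSC against Blood + MSC, whose own libraries all stayed in the fit, 10 were called higher and 29 lower, with 22.3% and 18.9% of all genes. Of the genes called in the fit of all libraries, 8 of 14 higher and 10 of 11 lower calls were also made in the first comparison and 3 of 3 and 8 of 8 in the second. By complex, the median log2 fold changes in MI against Blood were then -1.26 in V, -1.02 in IV, -0.31 in III, -0.30 in I and 0.19 in II. In MI + MSC against Blood + MSC, 11 of 17 ATP synthase genes were lower and 0 higher. Of 13 complex IV genes 8 were lower and 2 higher, and of 36 complex I genes 5 and 3. Complex III had 4 of 8 lower and 4 higher, and complex II 1 of 4 lower and 1 higher. On the recovered reads, edgeR called 9 members higher and 22 lower in MI against Blood (17.7% and 17.8% of all genes), and 7 higher and 22 lower in MI + MSC against Blood + MSC (16.4% and 15.6%). DESeq2 called 8 higher and 15 lower (18.7% and 15.7%) and 8 higher and 16 lower (17.8% and 11.2%).

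**Figure D2:**
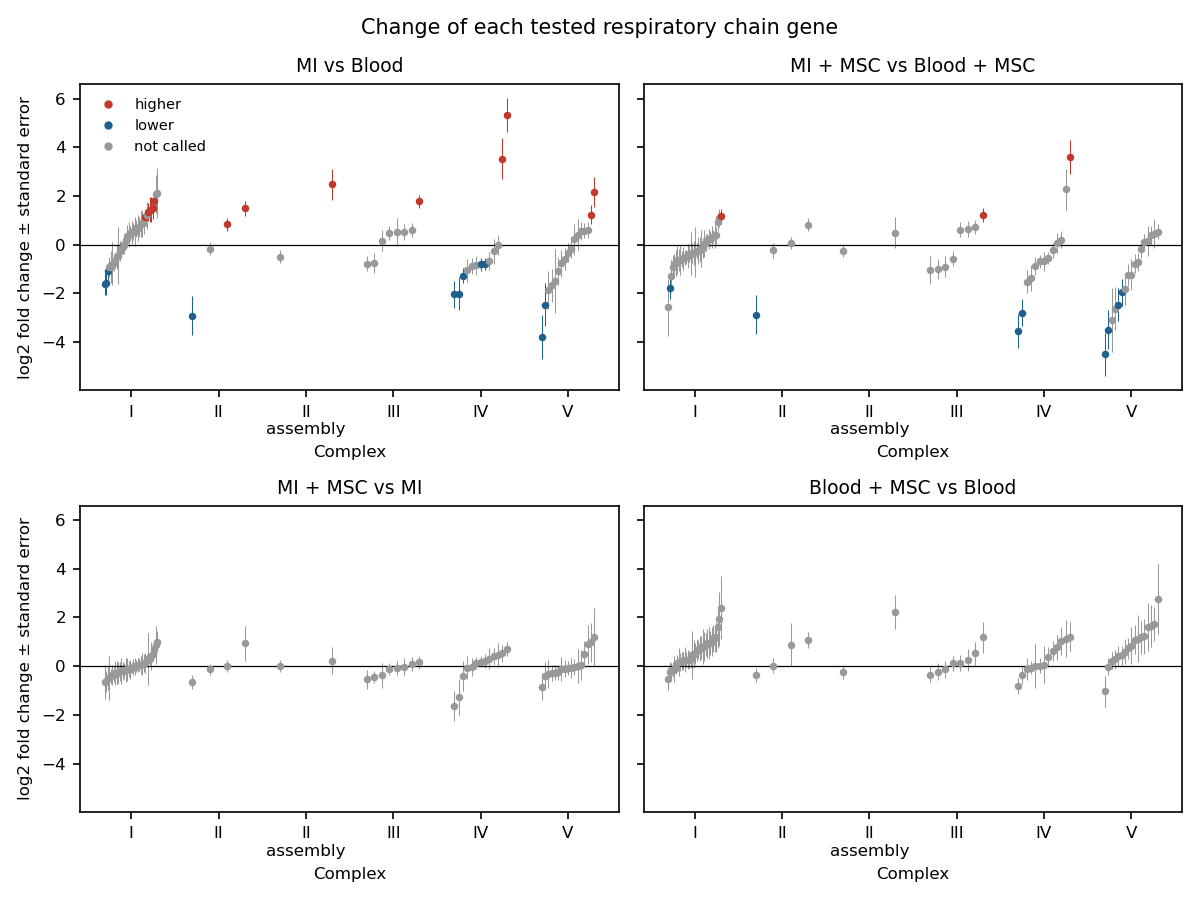
Log2 fold change with its standard error (vertical axis) of each of the 80 tested genes, placed by complex and ordered by size within it, in the 4 comparisons. Red points were called higher, blue points lower and grey points were not called. The heart against blood panels span from -4.51 to 5.32, and no gene was called in the panels of MSC treatment.

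Complex I takes electrons from NADH. In MI against Blood 6 of its 36 tested genes were called higher and 3 lower, with a median log2 fold change of 0.49. Of all genes tested, 21.2% were higher and 13.5% lower. In MI + MSC against Blood + MSC 1 was higher and 1 lower, with a median of -0.32, beside 8.23% and 5.85% of all genes. As shares, these counts of complex I are below those of all genes. Ndufa12, an accessory subunit, had 101, 56.7 and 58.7 normalized counts across MI hearts and 66.9, 62.0 and 75.9 in MI + MSC. Values were 14.1 and 24.7 for Blood and 26.3 and 36.8 in Blood + MSC. Every heart library lay above every blood library, as in 10 of the 80 tested members and 19.1% of all genes. Its log2 fold change was 1.79 (SE 0.37, limma adjusted p = 0.00443) in MI against Blood and 1.08 (SE 0.37, adjusted p = 0.0695) in MI + MSC against Blood + MSC. Ndufc2, a membrane arm subunit, had 84.0, 63.4 and 58.2 in the MI hearts, 89.2, 73.5 and 90.2 in MI + MSC, 28.3 and 31.8 for Blood and 33.1 and 40.2 in Blood + MSC. It was 2.28-fold and 2.30-fold higher in the heart (limma adjusted p = 0.0139 and 0.0239). Ndufab1, the mitochondrial acyl carrier protein, had 25.2, 22.1 and 18.5 in MI against 7.07 and 5.85 in Blood (3.40-fold, limma adjusted p = 0.0233). In MI + MSC it had 13.5, 20.7 and 22.4, which overlapped the 11.3 and 18.2 of Blood + MSC. Ndufv1, Ndufb6 and Ndufb8 were also called higher in MI against Blood, and none of the 3 was called without Blood 21. Ndufab1 was not called without MI 19 or without Blood 22, and under TMM scaling neither it nor Ndufc2 was.

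Other complex I genes went the opposite way. Ndufb4, a membrane arm subunit, had 8.40, 10.6 and 5.66 in the MI hearts, 8.11, 11.5 and 7.46 in MI + MSC, 21.2 and 39.0 for Blood and 36.5 and 33.5 in Blood + MSC. All heart libraries lay below all blood libraries, by 3.66-fold without MSC and 3.88-fold with MSC (limma adjusted p = 0.0203 and 0.0280), and the first call was not made without MI 20 or Blood 22. Ndufa1 had 8.40, 29.8 and 33.5 in MI against 77.7 and 55.9 in Blood (log2 fold change -1.58, SE 0.49, limma adjusted p = 0.0283), and 41.2, 36.7 and 54.2 in MI + MSC against 64.9 and 58.0 in Blood + MSC (-0.48, adjusted p = 0.535). Its lowest value, in MI 13, is 1 read, and it was not called without Blood 21 or under TMM or library size scaling. Ndufb1 was not called in either comparison of all libraries: it had 6.78 to 18.3 in the 6 heart libraries, 98.1, 71.2 and 74.2 in Blood 22 and the Blood + MSC libraries and 0 in Blood 21.

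Complex II, succinate dehydrogenase, also belongs to the tricarboxylic acid cycle. In MI against Blood 2 of its 4 subunits were called higher and 1 lower, beside 21.2% and 13.5% of all genes. Sdhb, the iron-sulfur subunit, had 0, 9.61 and 10.8 in the MI hearts and 10.1, 11.5 and 10.8 in MI + MSC, against 21.2 and 109 for Blood and 90.9 and 92.4 in Blood + MSC. It was lower in the heart in both comparisons (log2 fold changes -2.92 and -2.87, SE 0.81 each, limma adjusted p = 0.0178 and 0.0366), although without Blood 22 the first call was not made. Over the 6 heart libraries Sdhb averaged under 10, so it reached the filter only through the blood libraries. Its p-values thus follow a selection on high blood values. Sdha, the catalytic flavoprotein, had 134, 160 and 124 in the MI hearts, 35.3 and 64.3 in Blood, 72.3, 94.1 and 98.3 in MI + MSC and 108 and 97.4 in Blood + MSC. Untreated, the heart was 2.80-fold higher (limma adjusted p = 0.00473, a call not made under TMM scaling), while with MSC the log2 fold change was -0.22 (SE 0.31, adjusted p = 0.659). Sdhc, a membrane anchor, had 129 to 176 in the 6 heart libraries and 79.3 to 92.9 in the 4 blood libraries. Its log2 fold change was 0.84 (SE 0.27, limma adjusted p = 0.0320) in MI against Blood and 0.81 (SE 0.27, adjusted p = 0.0645) in MI + MSC against Blood + MSC. The first of these calls was not made when any of 6 libraries was left out, Blood 21 among them. Sdhd, with 141 to 224 over all libraries, was not called.

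Of the complex II assembly factors, Sdhaf1, which acts on the iron-sulfur subunit, had 25.2, 30.8 and 24.2 in the MI hearts, 37.2, 27.6 and 30.5 in MI + MSC, 0 and 11 for Blood and 21.3 and 22.2 in Blood + MSC. It was called in MI against Blood (4.84-fold higher, limma adjusted p = 0.0132) and not with MSC (1.46-fold, adjusted p = 0.631). The value of 0 in Blood 21 allows up to 21.2 normalized counts, and the log2 fold change of 2.48 without MSC was 1.13 when Blood 21 was left out and 3.84 when Blood 22 was. Sdhaf2, which helps to attach the flavin, had 67.2 to 94.2 in heart libraries and 87.0 to 113 in those of blood and was not called. Sdhaf3 was under the filter. It had 42.0, 6.73 and 8.24 in the MI hearts and 10.8, 16.1 and 5.42 in MI + MSC, against 0 and 1.95 for Blood and 1.84 and 3.37 in Blood + MSC. Sdhaf4 had 0 to 10.6 in heart libraries and 0 to 7.40 in those of blood.

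Complex III passes electrons from ubiquinol to cytochrome c. Uqcrfs1, its Rieske iron-sulfur protein, was the only one of its 8 genes called in either comparison of all libraries. Of all genes tested, 21.2% and 8.23% were called higher in these comparisons. The medians of the 8 log2 fold changes were 0.49 and 0.02. Uqcrfs1 had 345, 298 and 248 normalized counts across MI hearts and 208, 191 and 258 in MI + MSC. Blood held 70.7 and 101 and Blood + MSC 89.6 and 93.4. The lowest heart library thus lay above the highest blood library, as in 10 of the 80 tested members and 19.1% of all genes. The heart was 3.45-fold higher without MSC (log2 fold change 1.77, SE 0.28, limma adjusted p = 0.00119) and 2.39-fold higher with MSC (1.23, SE 0.28, adjusted p = 0.0162). Under TMM scaling, which moved the median of all genes by -0.21 and -0.59, neither call was made. Uqcr10, a small subunit, had 135 to 227 in heart libraries and 101 to 141 in those of blood, and Uqcr11 had 17.3 to 42.0 in heart libraries and 35.3 to 50.3 in those of blood. Neither was called.

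Complex IV reduces oxygen to water. In MI against Blood 2 of its 13 tested genes, both heart-type forms, were called higher and 5 lower (median log2 fold change -0.80). In MI + MSC against Blood + MSC 1 was higher and 2 lower (median -0.69). The heart-type forms called higher had passed the filter only through the heart libraries. Of all genes, 21.2% were higher and 13.5% lower in the first comparison and 8.23% and 5.85% in the second. Cox6c had 16.8, 17.3 and 11.8 in the MI hearts, 12.8, 9.18 and 10.8 in MI + MSC, 21.2 and 203 for Blood and 159 and 139 for Blood + MSC. Its log2 fold change was -2.01 (SE 0.69, limma adjusted p = 0.0418) without MSC and -3.55 (SE 0.69, adjusted p = 0.00708) with MSC, and the first call was not made when any single library other than Blood 21 was left out. Cox5a, a subunit on the matrix side, had 8.40, 13.5 and 8.75 in the MI hearts and 14.9, 13.8 and 14.9 in MI + MSC. It had 21.2 and 103 for Blood and 99.3 and 127 in Blood + MSC, and its log2 fold changes were -2.04 and -2.79 (SE 0.55 each, limma adjusted p = 0.0155 and 0.00744). In both genes the heart libraries lay below all blood libraries, as in 11 of the 80 tested members and 14.0% of all genes. Blood 21 lay closer to the heart than to the other blood libraries. Its value is 3 reads in each gene, and MI 13 has 2 reads of Cox6c and 1 of Cox5a. Without Blood 22 neither was called in MI against Blood. Cox7a2l, a factor of supercomplex assembly, had 118, 204 and 205 in MI against 410 and 418 in Blood (2.36-fold lower, limma adjusted p = 0.00886). With MSC it had 209, 177 and 207 in heart libraries and 248 and 217 in those of blood (adjusted p = 0.630). It was not called under TMM or library size scaling or with only these 2 groups in the fit.

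Other subunits with alternative forms differed among themselves. Cox4i1, the form found in most cells, had 185, 179 and 176 in the MI hearts and 208, 177 and 212 in MI + MSC, against 254 and 391 for Blood and 341 and 302 for Blood + MSC. It was called lower in MI against Blood (1.79-fold, limma adjusted p = 0.0410) and not with MSC (1.62-fold, adjusted p = 0.113). Its alternative form Cox4i2, known from lung and vascular cells, was under the filter. It had 16.8, 10.6 and 7.72 in the MI hearts, 0.676, 11.5 and 6.10 in MI + MSC, 0 and 0.650 for Blood and 0.525 and 0.337 in Blood + MSC, so that every heart library lay above every blood library, although the lowest heart value is 1 read. Cox6b1 had 126, 127 and 102 in MI against 205 and 209 in Blood (1.75-fold lower, limma adjusted p = 0.0281), and 140, 131 and 131 in MI + MSC against 210 and 187 in Blood + MSC (adjusted p = 0.145). The calls of Cox4i1 and Cox6b1 were not made under TMM or library size scaling, nor when 7 and 6 of the libraries, Blood 22 among them, were each left out. The testis form Cox6b2 had at most 2.30 in any library.

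Of the 17 tested genes of complex V, 2 were called higher and 2 lower in MI against Blood (median log2 fold change -0.33). In MI + MSC against Blood + MSC 0 were called higher and 4 lower (median -1.23). Of all genes, 21.2% were higher and 13.5% lower in the first comparison and 8.23% and 5.85% in the second. Atp5f1e, the small epsilon subunit of the rotor stalk, had 0, 4.81 and 2.57 normalized counts across the MI hearts, 6.76, 2.30 and 8.81 in MI + MSC, 14.1 and 187 for Blood and 167 and 166 for Blood + MSC. The measured values of the heart lay below those of blood, by 40.9-fold without MSC (log2 fold change -3.80, SE 0.90, limma adjusted p = 0.00889) and 28-fold with MSC (-4.51, SE 0.90, adjusted p = 0.00801). Without Blood 22 the first of these calls was not made, at a log2 fold change of -2.03, and without Blood 21 the value was -5.58. The 0 of MI 13 allows up to 25.2 normalized counts, which is above the 14.1 of Blood 21. Atp5mf, a membrane subunit, had 16.8, 15.4 and 12.4 in the MI hearts, 14.9, 16.1 and 13.6 in MI + MSC, 14.1 and 227 for Blood and 194 and 179 for Blood + MSC. It was called with MSC (log2 fold change -3.49, SE 0.79, limma adjusted p = 0.0155) and not without (-1.86, SE 0.79, adjusted p = 0.0882). Atp5mg, with 14.4 to 42.0 in the heart and 28.3, 225, 163 and 132 in Blood 21, Blood 22 and the Blood + MSC libraries, was called with MSC (-2.46, SE 0.68, limma adjusted p = 0.0349). So was Atp5mc2, a c-ring gene, with 15.6 to 21.1 in the heart and 14.1, 74.1, 61.2 and 85.1 in blood (-1.97, SE 0.55, limma adjusted p = 0.0349). Atp5mk, with 0 to 15.5 in the heart and 14.1, 95.5, 94.6 and 75.9 in blood, was called without MSC (-2.47, SE 0.88, limma adjusted p = 0.0496) but not with MSC (-2.62, SE 0.88, adjusted p = 0.0688), and leaving out any of 8 libraries, Blood 22 among them, ended the first call.

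Other ATP synthase genes had other values. Atp5f1b, the catalytic subunit, had 562 to 836 in heart libraries and 382 to 650 in those of blood and was not called in either comparison (log2 fold changes 0.61 and 0.12, SE 0.33 each). Atp5mc1, another c-ring gene, had 151, 85.5 and 58.2 in the MI hearts and 53.4, 36.7 and 63.0 in MI + MSC, against 7.07 and 45.5 for Blood and 33.6 and 60.2 in Blood + MSC. It was called higher in MI against Blood (3.74-fold, limma adjusted p = 0.0216), a call that was not made without MI 13, without Blood 21 or under TMM scaling. Its log2 fold change with MSC was 0.14 (SE 0.63). The 3 c-ring genes encode the same mature protein in mammals.

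**Figure D3:**
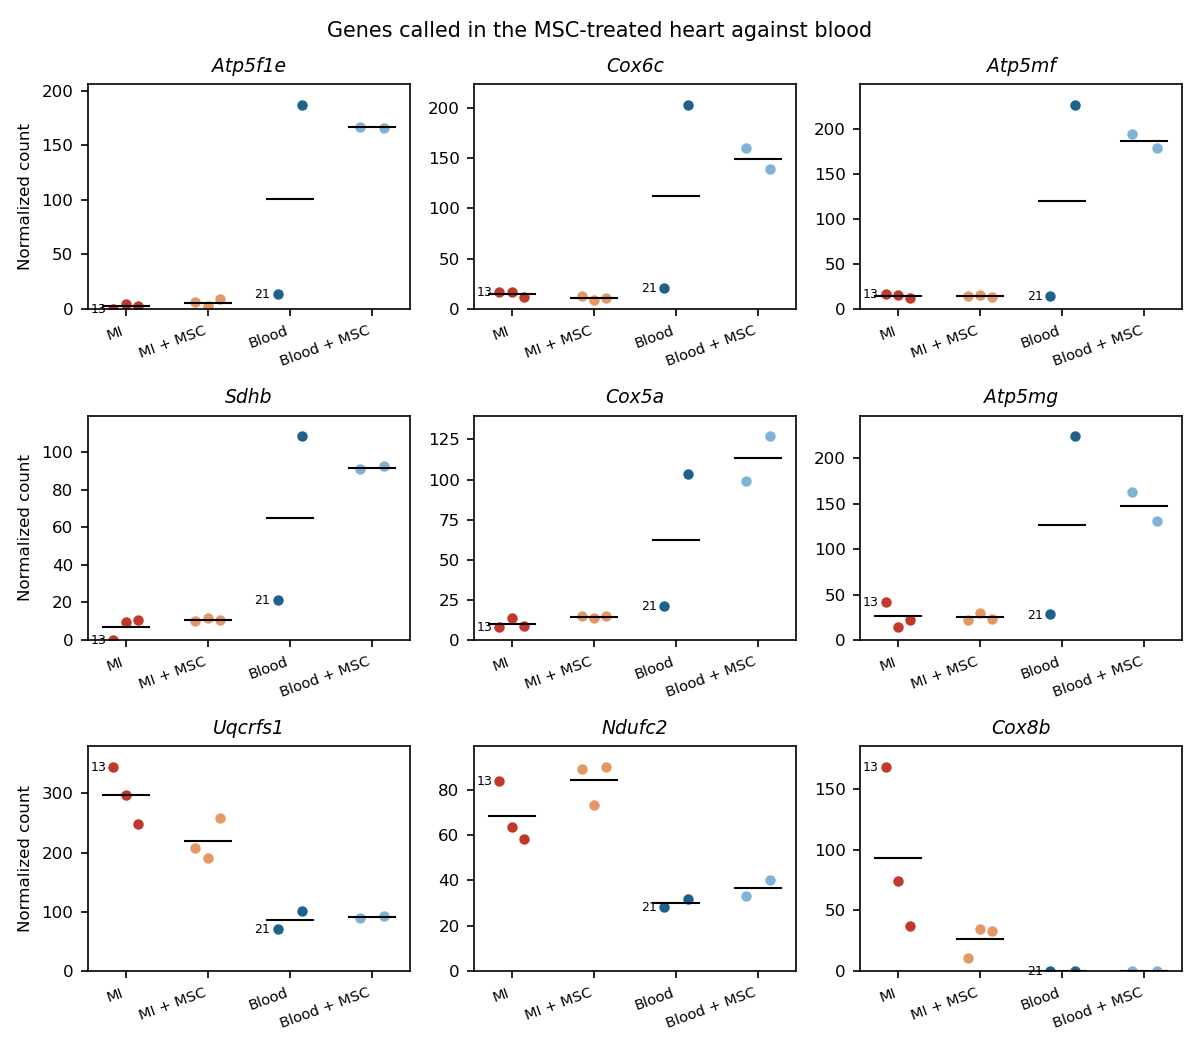
Normalized counts (vertical axes, starting at 0) of 9 of the 11 genes called in MI + MSC against Blood + MSC, by group. Points are libraries, black lines are group means, and libraries 13 and 21, with the fewest reads, are labelled. For Atp5f1e, Cox6c, Atp5mf, Sdhb, Cox5a and Atp5mg the Blood 21 point sits between 14.1 and 28.3, near the heart points and far below the other blood points, and for Uqcrfs1, Ndufc2 and Cox8b it sits with the other blood points.

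Blood 21 and Blood 22 share a label but differed in this set of genes. Blood 21 lay below each of the 3 other blood libraries in 62 of the 80 tested genes (77.5%) and above them in 9 (11.2%), where 48.1% of all genes tested lay below and 27.8% above. Against those 3 libraries alone, the 6 heart libraries were all lower in 32 genes (40.0%, against 21.8% of all genes) and all higher in 13 (16.2%, against 24.1%). In 9 genes each of the 3 blood libraries was at least 3 times as high as the highest heart library and Blood 21: Atp5f1e, Atp5mf, Atp5mg, Atp5mj, Atp5mk, Cox5a, Cox6c, Ndufb1 and Sdhb. This pattern was looked for after it was seen, and it was met by 0.546% of all genes tested. The 3 blood libraries averaged 41.2-fold over the heart for Atp5f1e, 14.3-fold for Atp5mj, 13.5-fold for Atp5mf, 12.7-fold for Cox6c and 11-fold for Sdhb, and 6.75-fold to 8.89-fold for the others. In Blood 21 they had 0 to 4 reads each. Atp5if1, the inhibitor of the ATP synthase, stood out in Blood 21 the other way, with 360 normalized counts against 87.1, 81.4 and 90.9 in the other blood libraries and 42.0 to 147 in the heart.

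These differences moved with the length of the longest exon of the canonical transcript, in the members as in all coding genes. The classes were set after seeing the data. Among the 24 tested members whose longest exon is under 300 bases, the median log2 difference of Blood 21 from Blood 22 was -1.39, among the 31 with at least 300 and under 1000 bases -1.10 and among the 25 with 1000 bases or more -0.83. Over all tested protein-coding genes the same medians were -1.14 (340 genes), -0.46 (2553) and -0.22 (7744). In MI against Blood, the members' medians were -0.47, 0.17 and 0.20, and in MI + MSC against Blood + MSC -0.50, -0.34 and -0.25, while those of all coding genes were -0.35, 0.05 and 0.25 in the first and -0.74, -0.06 and 0.18 in the second. Blood + MSC 24 against Blood 22 had medians of -0.09, -0.10 and -0.11 in the members and -0.06, 0.004 and 0.009 in all coding genes. No further pair of blood libraries was compared in this way. The 9 genes of the pattern fell in all classes. The longest exons of Cox6c, Atp5f1e, Cox5a and Atp5mg have 130, 150, 202 and 206 bases. Those of Atp5mf and Ndufb1 have 560 and 595, and those of Atp5mj, Atp5mk and Sdhb have 2576, 2584 and 3045. The part of exon length in these differences was not tested.

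**Figure D4:**
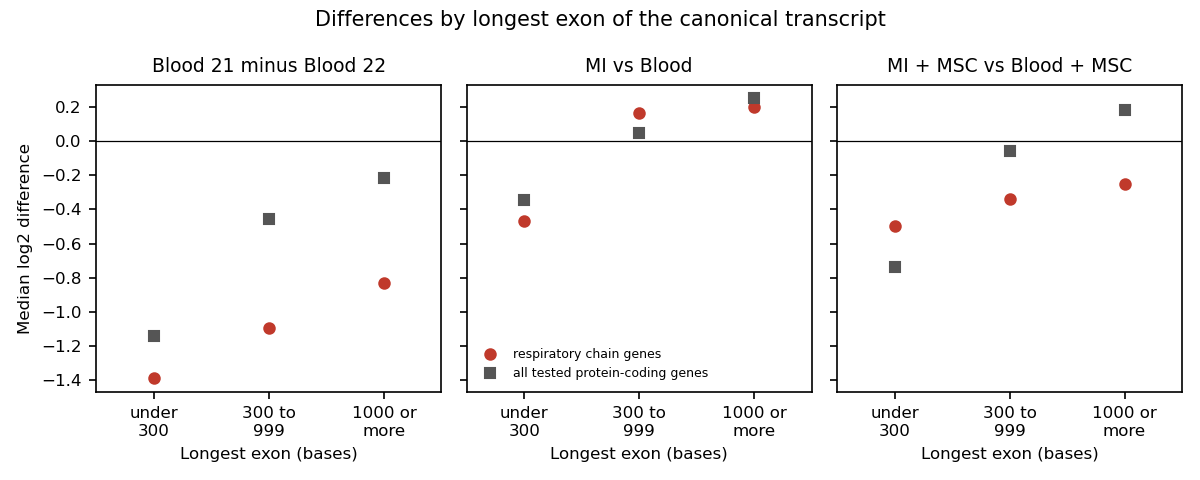
Median log2 difference (vertical axis) by class of longest exon (horizontal axis, in bases) for the tested respiratory chain genes (red circles) and all tested protein-coding genes (grey squares). In each of the 3 panels both series are lowest in the class under 300 bases, and in Blood 21 minus Blood 22 the members lie from -1.39 to -0.83.

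Near-identical copies elsewhere in the genome can also divert reads. A stretch covering at least 50% of the canonical mRNA at 95% identity or more was found outside the gene for 14 of the 88 members, among them Atp5mg with 10 copies, Cox6c and Atp5mc2 with 2 each and Cox7a2l, Cox8a and Atp5mc1 with 1 each, so their values are less certain. Of the 12 such genes that were tested, 1 was called higher and 2 lower in MI against Blood and 3 lower in MI + MSC against Blood + MSC. Of the 68 tested genes without a copy, 13 were higher and 9 lower in the first comparison and 3 and 5 in the second, where 21.2% and 13.5%, and 8.23% and 5.85%, of all genes were called. The median log2 fold change was -0.77 with a copy and 0.30 without one in MI against Blood, and -0.30 and -0.37 in MI + MSC against Blood + MSC.

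The heart-type forms of complex IV stood out from the rest of the complex. Cox8b had 168, 74.0 and 37.1 normalized counts across MI hearts and 10.8, 34.4 and 33.2 in MI + MSC. It had 0 in both Blood libraries, which allows up to 21.2 normalized counts (3 reads) in Blood 21 and 1.95 in Blood 22. The Blood + MSC libraries had 0 and 0.168. Taken against the mean floor of 3 reads per Blood library, the MI mean of Cox8b exceeded Blood at least 8.04-fold (limma adjusted p = 0.000357). That mean is raised most by MI 13. Cox8b and Cox6a2 reached the filter's mean of 10 only through the heart libraries. Their limma p-values for heart against blood thus follow a selection on high heart values. In MI + MSC against Blood + MSC, with 80 reads against 1, the ratio of the pooled reads was 230 (exact 95% counting interval 40.1 to 9200, limma adjusted p = 0.00671). Cox6a2 had 67.2, 21.1 and 9.78 in the MI hearts and 4.73, 9.18 and 16.3 in MI + MSC, against 0 and 0.650 for Blood and 0 and 0.673 in Blood + MSC. In MI against Blood, with 49 reads against 1, the ratio of the pooled reads was 26.5 (exact 95% counting interval 4.55 to 1070, limma adjusted p = 0.00900). With MSC it was 29.9-fold higher by group means, but the test did not pass (log2 fold change 2.27, SE 0.84, adjusted p = 0.0915). Cox7a1, under the filter, did not follow them. It had 8.40, 1.92 and 1.03 in the MI hearts, 0, 0 and 2.03 in MI + MSC, 7.07 and 2.6 for Blood and 1.84 and 4.04 in Blood + MSC, which is 0 to 3 reads in each heart library.

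The forms found in most cells had reads in all libraries. Cox6a1 had 50.4, 114 and 125 in the MI hearts, 148, 106 and 143 in MI + MSC, 134 and 198 for Blood and 215 and 210 for Blood + MSC. Cox8a had 109, 215 and 206 in the MI hearts, 318, 294 and 227 in MI + MSC, 339 and 284 for Blood and 239 and 240 for Blood + MSC. Cox7a2 had 39.6 to 67.2 in the heart and 28.3, 142, 141 and 126 in Blood 21, Blood 22 and the Blood + MSC libraries. None of these 3 genes was called in either comparison of heart and blood, with log2 fold changes from -1.37 to 0.21.

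The upstream sequences of the Cox6a2 and Cox8b pairs are shown because their heart-type and common forms differ in them. Those of Cox7a1 and Cox7a2 are not shown. Each window gives the 200 bases before the first annotated base of the gene, 5′ to 3′ on the gene's strand (the minus strand for all 4), from GRCm39. They are chr7:127805560-127805759 for Cox6a2, chr7:140480360-140480559 for Cox8b, chr5:115487051-115487250 for Cox6a1 and chr19:7194998-7195197 for Cox8a. Capitals mark matches to the motifs described after them.
Cox6a2: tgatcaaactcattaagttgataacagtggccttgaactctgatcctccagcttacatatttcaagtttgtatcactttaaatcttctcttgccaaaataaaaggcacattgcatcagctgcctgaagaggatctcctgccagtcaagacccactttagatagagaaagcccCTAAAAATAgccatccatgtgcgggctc
Cox8b: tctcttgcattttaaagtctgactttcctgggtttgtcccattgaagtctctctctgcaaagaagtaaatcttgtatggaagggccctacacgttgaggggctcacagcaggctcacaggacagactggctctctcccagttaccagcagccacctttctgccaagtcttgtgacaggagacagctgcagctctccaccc
Cox6a1: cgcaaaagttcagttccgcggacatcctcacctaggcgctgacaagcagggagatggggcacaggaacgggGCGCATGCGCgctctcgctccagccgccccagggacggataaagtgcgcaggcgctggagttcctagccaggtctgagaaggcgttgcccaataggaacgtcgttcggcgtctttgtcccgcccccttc
Cox8a: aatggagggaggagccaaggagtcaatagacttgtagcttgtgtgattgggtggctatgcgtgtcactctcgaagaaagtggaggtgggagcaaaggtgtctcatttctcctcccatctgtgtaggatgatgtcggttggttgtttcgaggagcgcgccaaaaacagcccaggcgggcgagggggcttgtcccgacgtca

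The heart-type windows shown hold fewer CG pairs: 1 each in Cox6a2 and Cox8b, against 19 in Cox6a1 and 10 in Cox8a, with GC contents of 42.0%, 51.5%, 63.5% and 55.0%. In the 250 bases before their canonical starts, Cox7a1 and Cox7a2 have 3 and 12 CG pairs and GC contents of 49.2% and 51.6%. Cox7a1, which was not higher in the heart libraries as a set, thus also has few CG pairs. The letters searched, on both strands, were GCGCATGCG for NRF1 and CCGGAAG for GABP, both known as regulators of respiratory chain genes, AAGATGGCG for YY1, CTAAAAATA for the muscle factor MEF2 and TATAAA for the TATA box. In the 250 bases before the canonical start, the MEF2 letters occurred in 1 of the 88 members, Cox6a2 (1.14%), where they begin 28 bases before the end of the window, and in 0.391% of all 17888 coding genes. The NRF1 letters occurred in Cox6a1, Ndufa13 and Atp5mg (3.41% against 1.56% of coding genes). In Cox6a1 they match on both strands in an overlapping palindrome, 129 bases before the end of the window. The GABP letters occurred in 8 members (9.09% against 7.60%), among them Cox8a, where the match lies outside the window shown. TATAAA occurred in 10 members (11.4% against 9.73%) and the YY1 letters in 0 of 88 (0.632% of coding genes). The median GC content was 53.8% in the members and 54.8% in all coding genes. These matches describe letters and not binding.

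The share of a pair's reads that came from the heart-type form does not depend on the scaling of a library. For Cox8b and Cox8a it was 60.6%, 25.6% and 15.2% across MI and 3.29%, 10.5% and 12.8% in MI + MSC. In Blood 21, Blood 22 and Blood + MSC 23 it was 0 of 48, 437 and 910 reads, which allows shares of up to 6.25%, 0.686% and 0.330%, and in Blood + MSC 24 it was 0.0700%. The mean was 21.3% ± 20.6 (SD, n = 6) in the heart and 0.0175% ± 0.0350 (SD, n = 4) in blood. For Cox6a2 and Cox6a1 it was 57.1%, 15.6% and 7.25% across MI and 3.10%, 8.0% and 10.2% in MI + MSC, against 0 of 19 reads in Blood 21 (a share of up to 15.8%), 0.327% in Blood 22, 0 of 817 reads in Blood + MSC 23 (up to 0.367%) and 0.320% in Blood + MSC 24. The means were 16.9% ± 20.1 (SD, n = 6) and 0.162% ± 0.187 (SD, n = 4). In both pairs the 6 heart shares all exceeded the 4 blood shares (exact permutation test, two-sided, p = 0.00952, which 6 against 4 libraries cannot go below, adjusted over the 3 pairs p = 0.0143). Without MSC alone the difference was 26.5 percentage points for Cox6a2 and 33.8 for Cox8b, and with MSC alone 6.94 and 8.81 (exact permutation p = 0.2 each, the smallest possible). The values of MI 13 rest on 33 and 14 reads of the pair and have exact 95% intervals of 42.1% to 77.1% and 28.9% to 82.3%. For Cox7a1 and Cox7a2 the share was 3.53% ± 4.09 (SD, n = 6) in the heart and 6.55% ± 9.0 (SD, n = 4) in blood (two-sided exact permutation p = 0.524, adjusted p = 0.524). The highest blood value, that of Blood 21, was 1 of 5 reads, and without it the heart mean was the higher one by 1.47 percentage points.

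**Figure D5:**
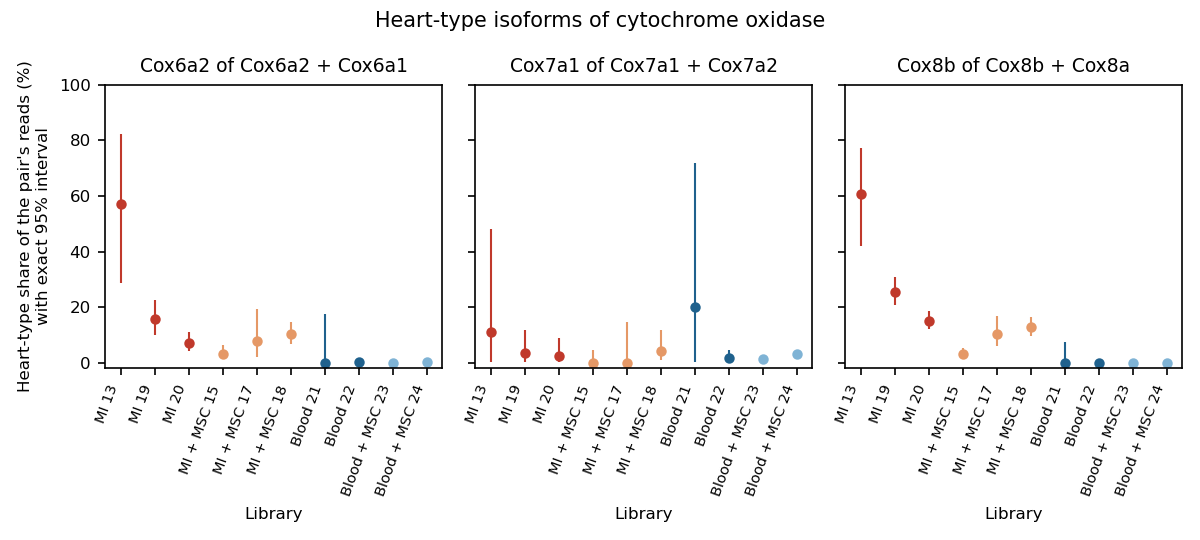
Share of the reads of each isoform pair that came from the heart-type form (vertical axes, percent) in the 10 libraries, with exact 95% binomial intervals. Red and orange points are heart libraries without and with MSC, and dark and light blue points blood libraries without and with MSC. The shares of Cox8b and Cox6a2 lie between 3.10% and 60.6% in the heart and at or under 0.327% in blood, and those of Cox7a1 overlap.

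Heart muscle markers differed between the same libraries. Their sum was 26012, 26882 and 9233 in the MI hearts, where Cox8b had 168, 74.0 and 37.1, and 3699, 5806 and 14247 in MI + MSC, where Cox8b had 10.8, 34.4 and 33.2. As a percentage of that sum, Cox8b was 0.646, 0.275 and 0.401 in the MI hearts and 0.292, 0.593 and 0.233 in MI + MSC. Cox6a2 was 0.258, 0.0787 and 0.106 in the MI hearts and 0.128, 0.158 and 0.114 in MI + MSC. The part of heart muscle RNA in these values was not tested.

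MSC treatment changed no member of the respiratory chain past the threshold, in the heart or in blood. In MI + MSC against MI, 0 of the 80 tested genes and 0% of all genes were called. The median log2 fold change of the members was -0.05, beside -0.01 for all genes. At an unadjusted p under 0.05 there were 5 members, 3 higher and 2 lower, where 8.01% of all genes were under it. The lowest adjusted p was 0.590 (limma). The 5 genes were Cox8b, Cox8a, Sdha, Ndufa7 and Ndufa1. Cox8b was 3.56-fold lower by group means (log2 fold change -1.65, SE 0.62, limma adjusted p = 0.590), and all MI + MSC libraries lay below all MI libraries. The 18 heart muscle markers had a median log2 fold change of -1.32 in the same comparison, the 12 endothelial markers of -1.60, the 8 mural markers of -0.99 and the 12 monocyte or macrophage markers of 0.81, with 0 called on each list. The part of these cell types was not tested. Sdha was 1.58-fold lower and Cox8a 1.58-fold higher, again without overlap of the groups (limma adjusted p = 0.618 for both). Groups without overlap were seen in 3 members that were lower and 8 that were higher. Of all genes, 9.6% and 7.05% were so. Ndufa7, an accessory subunit of complex I, had 33.6, 53.8 and 44.3 in the MI hearts and 80.4, 80.4 and 56.9 in MI + MSC, and Ndufa1 was 1.84-fold higher (limma adjusted p = 0.618 for both). edgeR and DESeq2 on the recovered reads also called 0 members here, in Blood + MSC against Blood and in the interaction. Of all 11549 genes, edgeR called 0 in the 3 comparisons, whereas DESeq2 called 21 higher and 55 lower here, 4 higher and 175 lower in Blood + MSC against Blood and 15 higher and 3 lower in the interaction.

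In Blood + MSC against Blood, 0 of 80 members and 0% of all genes were called, with a median log2 fold change of 0.47 in the members and 0.11 in all genes. At an unadjusted p under 0.05 there were 4 members, 3 higher and 1 lower, with 7.34% of all genes. Sdhaf1, at 0 in Blood 21, was 3.94-fold, Sdha 2.06-fold and Atp5po, a stalk subunit of ATP synthase, 2.33-fold higher, and Cox7a2l was 1.78-fold lower, as judged from 2 libraries a group (limma adjusted p = 0.672 for all 4). The fifth lowest p was that of Ndufv1, the NADH-binding subunit of complex I, with 21.2 and 63.7 for Blood and 85.4 and 83.5 in Blood + MSC (limma adjusted p = 0.672). Which Blood library is used decided this comparison. Without Blood 22, so that Blood 21 stood alone, 29 members were called higher and 0 lower, with 9.64% and 3.4% of all genes, whereas without Blood 21 there were 0.

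The interaction of MSC treatment and tissue, which asks whether the response to MSC differed between heart and blood, had 0 calls among the members and 0% of all genes. There were 7 members at an unadjusted p under 0.05, with 7.26% of all genes. The lowest p was that of Sdha (log2 difference of the changes -1.72, SE 0.44, limma adjusted p = 0.630). Next came Ndufv1 (-1.78), Cox7a2l (1.04), Atp5po (-2.05) and Atp5mc1 (-2.03), none of which passed the test. Without Blood 22, 23 members were called lower and 0 higher, with 7.33% and 2.16% of all genes, and without Blood 21 none were.

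Genes around the chain were counted on lists of their own, and all genes tested, with 21.2% higher and 13.5% lower, were also more often higher than lower in MI against Blood. Of 17 tested mobile carriers and other electron donors 9 were called higher and 0 lower, with a median log2 fold change of 1.16 beside 0.15 for all genes. The lowest p values were those of Coq8a, a kinase-like protein of ubiquinone synthesis (3.90, SE 0.80, limma adjusted p = 0.00442), Coq2, which joins the ring of ubiquinone to its tail (1.95, SE 0.41, adjusted p = 0.00538), and Etfb, a subunit of the electron transfer flavoprotein (2.80, SE 0.63, adjusted p = 0.00701). Of 14 genes of the tricarboxylic acid cycle 6 were higher and 0 lower (median 0.79), led by Idh3a, a subunit of isocitrate dehydrogenase (2.24, SE 0.44, limma adjusted p = 0.00366), Suclg2 of succinyl-CoA ligase (1.95) and Pdha1 of pyruvate dehydrogenase (1.30). Of 10 genes of mitochondrial fatty acid oxidation 2 were higher, Eci1 and Acadl (median 0.22). Of 12 regulators of mitochondrial biogenesis 2 were higher, Pprc1 (3.81, limma adjusted p = 0.00150) and Ppargc1b (2.92, adjusted p = 0.00687), both of the PGC-1 coactivator family (median 0.22). As shares, the last 2 counts are near or below the 21.2% of all genes. None (0) of the genes on these 4 lists was called in MI + MSC against Blood + MSC, with medians of 0.43, -0.12, -0.23 and -0.10 beside 0.09.

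Assembly factors were counted against the same background of 21.2% higher and 13.5% lower. Of 10 tested factors of complex I, 4 were higher in MI against Blood, led by Ndufaf4, Ecsit and Tmem70 (log2 fold changes 1.99, 1.67 and 2.79), and of 5 factors of complex III 1 was higher (Uqcc1, 1.48). Of 16 factors of cytochrome oxidase Cox10, which makes its haem, was higher and Pet100 lower, and the only tested factor of ATP synthase was not called. Pet100 was also the only gene of these lists called in MI + MSC against Blood + MSC (log2 fold changes -2.74 and -2.84, SE 0.55 each, limma adjusted p = 0.00422 and 0.00744), where 8.23% of all genes were higher and 5.85% lower. The list of heart- or muscle-type partners kept 2 tested genes, Hspb7 and Smpx, both muscle proteins, and both were higher in the heart in both comparisons (log2 fold changes 7.85 and 4.57 without MSC and 6.36 and 3.26 with MSC). MSC treatment changed no gene of any list past the threshold. The 18 heart muscle markers were called higher in 18 and 17 cases in the comparisons of heart and blood, the 12 endothelial markers in 10 and 10, and the 15 neutrophil markers were lower in 12 and 4. Of the other lists, 5 and 3 of 8 fibroblast, 6 and 5 of 8 mural and 2 and 3 of 12 monocyte or macrophage markers were higher, 10 and 1 of 12 platelet and 2 and 6 of 7 erythroid markers were lower, and 0 of 4 markers of B or T cells were called. The part of these cell types in the values of the respiratory chain genes was not tested.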

How the data were processed

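Ly6G+ cells of 6 infarcted hearts and 4 blood samples were profiled by stranded RNA sequencing after removal of ribosomal RNA. Adaptors were trimmed with Trimmomatic, PCR duplicates taken out with Picard and reads aligned to GRCm39 by STAR. featureCounts gave stranded gene counts, from which mitochondrial reads had been removed, and DESeq2 scaled them. Both deposited tables hold the same signal values (281850 of 281850 equal), which the authors made by dividing counts by a size factor and which are called normalized counts here. Within each library 100% were whole multiples of 1 read within 0.01 of a read, which gave back 148594 to 8602711 reads per library. Depth limits low values most in MI 13 and Blood 21.

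Gene names and types came from GENCODE's annotation of GRCm39, which held 27906 of the 28185 identifiers. Tests used limma (3.58.1) with a trend on log2(value + 2), which understates changes of low genes. Each group had a mean of its own in 1 fit of the 10 libraries, over genes averaging 10 or more. Calls needed an adjusted p under 0.05 and a log2 fold change of 0.5 or more in size (for the interaction, the adjusted p alone). Isoform shares were compared by exact permutation tests, with exact binomial 95% intervals, and a count of 0 was taken to allow 3 reads. Copies were searched with BLAST (2.17.0+). Alternatives were edgeR (4.0.16) and DESeq2 (1.42.0) on the reads, other pseudocounts, filters and scalings, and leaving out libraries. The study took the single mouse as its unit, but the labels do not tie libraries to mice.

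Named genes are the isoform pairs and other genes with alternative forms, up to 8 called genes a direction and comparison by size of change, the 5 lowest p where fewer than 5 were called, the highest and lowest level per kilobase in each complex, the Sdhaf genes and, of each list around the chain, up to 3 called genes a direction by lowest p. Parents of named pseudogenes were otherwise only counted. Genes named beyond these were chosen after their values were seen. The members and lists were chosen with earlier results of these data known.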

Additional observations from a re-analysis of the deposited data

How the results depend on the processing

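The count of members called in MI against Blood (25, 14 higher and 11 lower) was 9 under TMM scaling (4 higher, 5 lower, with 13.9% and 7.73% of all genes), 40 without both shallow libraries and 5 with only these 2 groups in the fit (9.45% and 5.27% of all genes). Library size scaling gave 27 higher and 3 lower (32.7% and 7.03%). In MI + MSC against Blood + MSC (11, 3 higher and 8 lower) the count was 29 by edgeR, 24 by DESeq2, 39 without both shallow libraries and 34 with only these 2 groups (18.8% and 15.9% of all genes), and TMM gave 1 higher and 12 lower (4.36% and 7.09%). TMM moved the median log2 fold change of all genes in that comparison from 0.09 to -0.50, and library size scaling moved it in MI against Blood from 0.15 to 0.63. The causes were not tested. Calls among all genes also changed with the library left out. In MI + MSC against Blood + MSC, 8.23% of all genes were higher and 5.85% lower with all libraries. Without MI 13 these shares were 12.8% and 10.1%, and without MI + MSC 18 they were 4.10% and 2.13%. More of all genes were called there without Blood 21, and far fewer without either Blood + MSC library, in fits that left 1 library in a group. The ranges of members are to be read beside these changes. Leaving out 1 library at a time, the counts ranged from 17 to 33 in MI against Blood, from 0 (without Blood + MSC 23) to 26 (without Blood 21) in MI + MSC against Blood + MSC, from 0 to 0 in MI + MSC against MI, from 0 to 29 (without Blood 22) in Blood + MSC against Blood and from 0 to 23 (without Blood 22) in the interaction. Without Blood + MSC 24 the second count was 1.

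The difference in share between heart and blood libraries was 26.5 percentage points for Cox6a2 and 33.8 for Cox8b without MSC alone and 6.94 and 8.81 with MSC alone, where the design cannot pass the threshold. Leaving out 1 library it ranged from 8.67 to 19.5 for Cox6a2, from 13.5 to 24.9 for Cox8b and from -4.77 to 1.47 for Cox7a1, whose sign turned without Blood 21. The largest calls of MI against Blood (16 genes) kept their side of the threshold in 259 of 317 alternatives and were weaker in 58, and those of MI + MSC against Blood + MSC (11 genes) in 176 of 219, weaker in 43, with 0 reversals in both. Cox8b and Ndufa12 were called higher in MI against Blood in each of 21 settings. No paired analysis was possible because the library numbers are not shared between groups.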
